A study of Homo sapiens with 59 samples.

Results

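Messenger RNA was measured by sequencing in A549 cells, a human lung carcinoma line, after 24 h in an ethanol extract of Citri Unshius Pericarpium at its high dose, 500 µg/mL. Citri Unshius Pericarpium is the dried peel of a mandarin used in East Asian medicine. The 2 libraries described here are replicates 1 and 2 of that dose, out of 59 libraries in the series. Replicate 3 was set aside because a larger share of its counts fell in antisense genes, noncoding genes on the opposite strand of another gene. The pair was thus chosen by that share, which is given as a description only. Genes that the annotation classes as antisense took 4601 CPM (counts scaled to library size) in replicate 3, 2789 in replicate 1 and 2464 in replicate 2, against 2762 to 2806 in vehicle. Across the series, the 4 libraries set aside held 3149 to 4601 CPM in these genes and the highest of the 55 others held 3137, so the boundary on this measure is narrow. For antisense genes without a gene symbol, the same 4 libraries held 1266 to 1517 CPM and the others at most 1119.

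All groups were the same unmodified line, cultured for 24 h with an extract or with the solvent dimethyl sulfoxide (DMSO). The vehicle group had 3 libraries, labelled as 0.1% DMSO in the sample records and as 2% in the text for the whole series, and this disagreement was not resolved. The high dose was compared with the vehicle, with the low dose of the same extract (20 µg/mL, 3 libraries) and with an ethanol extract of Cimicifugae Rhizoma, a rhizome drug, at 500 µg/mL (3 libraries). Replicates 1 and 2 of the medium dose (100 µg/mL) are shown beside them. The submitters state that doses were lowered for extracts that were toxic at the top concentration, and the high dose of both extracts here was that top concentration. Library codes of the 2 extracts begin with 12 and those of the vehicle with D1, so anything shared by libraries of code 12 cannot be told apart from an extract effect in the comparison with vehicle. Nothing in the labels ties replicates to separate cultures, so the spread between them may be technical. The p-values, and the SE given with log2 values, rest on a spread estimated over 55 libraries in 25 groups. They do not measure the spread of the compared libraries alone.

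Citrus peel is rich in flavonoids, among them polymethoxylated flavones and flavanone glycosides. Several flavonoids are ligands of the aryl hydrocarbon receptor (AhR), a cytosolic transcription factor that moves to the nucleus when bound, pairs with ARNT and activates detoxification genes such as CYP1A1 and CYP1B1, as well as TIPARP, which feeds back on the receptor. The RAF, MEK and ERK kinases relay growth factor signals to the nucleus. Their transcriptional output includes the immediate early genes EGR1 and FOSL1 and the feedback phosphatases of the DUSP family. The A549 line carries a loss-of-function mutation of KEAP1, which leaves the antioxidant regulator NRF2 and its targets high at baseline.

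The 55 libraries of the main model held 17477514 to 39751161 counts each. Vehicle libraries held 19320259 to 27975489, high-dose replicate 1 held 18149446 and high-dose replicate 2 held 39751161, the deepest. All 12 markers of the line (among them KRT8, ALDH1A1 and AKR1B10) were above 100 CPM in each vehicle and high-dose library, and their summed level was 24000 to 25000 CPM in vehicle, 24400 in replicate 1 and 23500 in replicate 2. Of 20 markers of blood, endothelial, stromal, neural and liver cells, 3 (PTPRC, CD3E and ALB) were at 0 in these libraries and 14 stayed below 1 CPM. Their summed level was 51.1 to 56.0 CPM in vehicle, 56.9 in replicate 1 and 37.2 in replicate 2, the last through lower COL1A1 (17.7 CPM against 32.4 to 33.6 in vehicle). Of 17 alveolar and secretory lung markers 11 were below 1 CPM, with SFTPA1 and SFTPA2 at 0. The surfactant protein genes SFTPA1, SFTPA2, SFTPB, SFTPC and SFTPD were thus nearly absent from a line often used as a model of alveolar type II cells. Other members of the list were present. MUC5AC was at 133 to 194 CPM, FOXA2 at 43.3 to 55.7, MUC5B at 17.6 to 30.5 and ABCA3 at 20.6 to 25.5. NAPSA and AGER reached at most 1.32 and 2.26 CPM.

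The 2 high-dose libraries were not alike. Among 10920 genes with a mean of at least 5 CPM, 45 genes (0.412%) in replicate 1 lay over 0.5 on the log2 scale from the vehicle mean, close to the 25 to 43 genes (0.229% to 0.394%) by which each vehicle library differed from the mean of the other two. In replicate 2, 745 genes (6.82%) lay that far out, and in the replicate set aside 5784 genes did. Libraries of the low dose had 119 to 170 such genes and those of Cimicifugae Rhizoma 138 to 170. The medium dose was divided in the same manner, with 31 genes in replicate 1 and 1912 in replicate 2. Genes classed as sense-intronic moved with these libraries and took 154 CPM in high-dose replicate 2 and 131 in medium-dose replicate 2, against 229 to 236 in vehicle and 228 in high-dose replicate 1. Mitochondrial rRNA took 3.02% of counts in replicate 2, 2.25% in replicate 1 and 2.24% to 2.43% in vehicle, but 2.21% in medium-dose replicate 2. The part of both measures in the results was not tested. Across 10920 genes, the high-dose difference of replicate 2 from replicate 1 correlated with that of the medium dose (r = 0.75). The r was 0.66 for the low dose, 0.44 for Cimicifugae Rhizoma and 0.04 for vehicle. The pair is therefore called replicates 1 and 2 below, and each result is given for both.

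**Figure D1:**
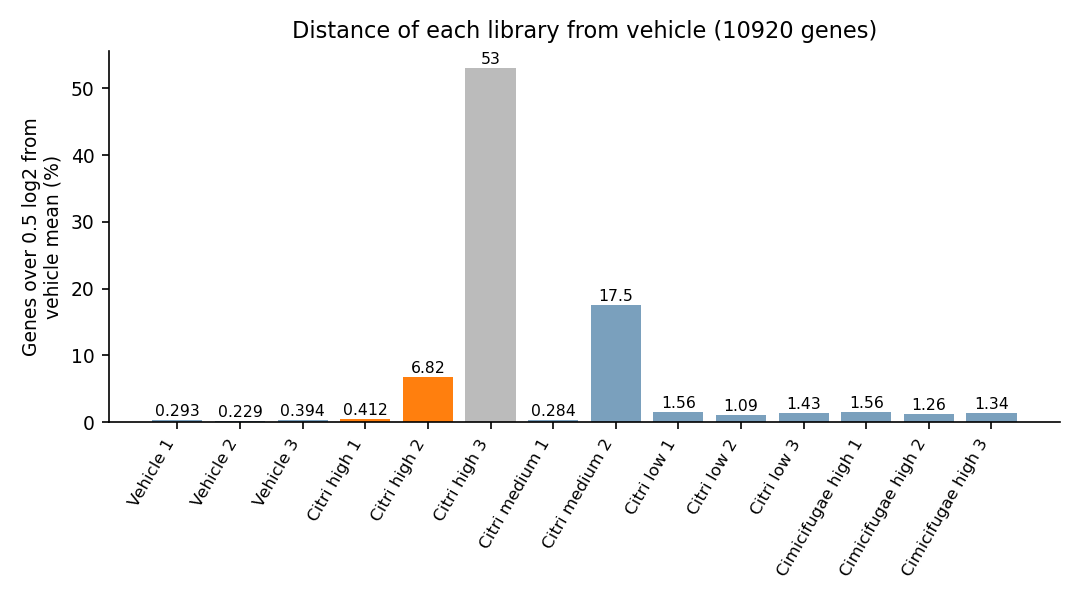
Share of 10920 genes (vertical axis, %) that lay over 0.5 on the log2 scale from the vehicle mean, for each library on the horizontal axis; orange bars are the high-dose pair, the grey bar is the replicate set aside, and each vehicle library is set against the other two. High-dose replicate 1 (0.412%) stands at the level of the vehicle libraries, and replicate 2 (6.82%) stands above every low-dose and Cimicifugae Rhizoma library.

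Against vehicle, genes that tested higher at the high dose included targets of AhR (TIPARP, CYP1B1), ERK-responsive genes (EGR1, FOSL1) and the chemokine CXCL8. Genes of cell-surface proteins (CDCP1, ANPEP, NT5E) also tested higher, and the 3 fibrinogen chains tested lower. CYP1B1 was nearly equal in both replicates, and most other changes were larger in replicate 2. In replicate 1, FOSL1 and CXCL8 lay inside the vehicle range. In medium-dose replicate 2 both were above vehicle as well, at 79.3 and 6.25 CPM. With edgeR's quasi-likelihood test and a Benjamini-Hochberg adjusted p below 0.05, 266 of 18339 genes (1.45%) were called, 161 higher (0.878%) and 105 lower (0.573%). Of the 266 genes, 248 (1.35% of all tested) had both high-dose libraries beyond all 3 vehicle libraries, a property shared by 25.5% of all genes tested, and 241 were protein-coding. An unadjusted p below 0.05 was reached by 3100 genes (16.9%). The median size of change from the vehicle mean was 0.217 on the log2 scale in replicate 1 and 0.552 in replicate 2. Replicate 2 moved more than 2 times as far as replicate 1 in 159 of them, and replicate 1 moved farther in 18.

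Without high-dose replicate 2, a single gene, CYP1B1, was called. In models that leave a group with 1 library, that library is assumed to vary like the other groups of the model, and the test has no spread of its own for it. Without replicate 1 the count was 2416. Leaving out vehicle replicate 1, 2 or 3 gave 63, 51 and 134 genes. A model of only the 5 libraries compared called 0 genes with edgeR, where 1603 had an unadjusted p below 0.05, and DESeq2 on the 55 libraries called 452. CYP1B1 was called under 11 of 13 alternative settings and 20 further genes under 10. These include ANPEP, FGA, GINS1 and AJUBA, which are described with their groups.

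**Figure D2:**
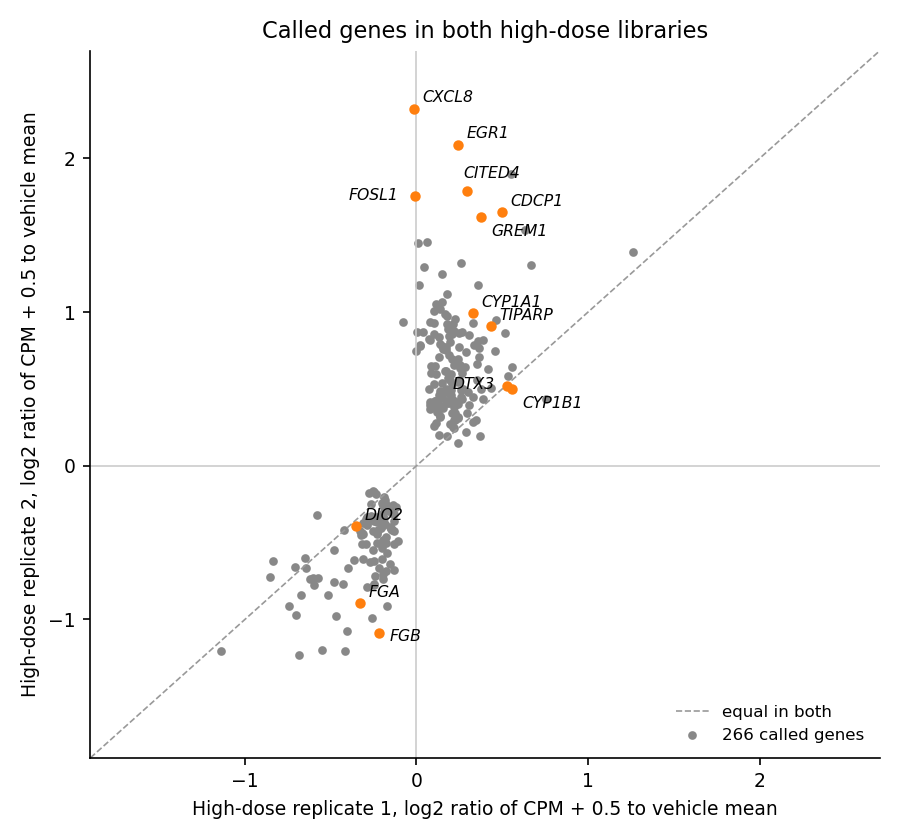
Each point is 1 of the 266 genes called for the high dose against vehicle, with its log2 ratio to the vehicle mean (after adding 0.5 CPM) in high-dose replicate 1 on the horizontal axis and in replicate 2 on the vertical axis; the dashed line marks equal change and orange points are named. CYP1B1, DTX3 and DIO2 lie on the line, while CXCL8 and FOSL1 lie at 0 in replicate 1 and above 1.5 in replicate 2.

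Among AhR targets, 4 of the 8 measured genes of a list of 10 were called higher at the high dose, beside 0.878% of all genes tested. The list median log2 fold change was 0.43, beside -0.0007 over all genes tested. The median for the list was 0.15 in replicate 1 and 0.42 in replicate 2. CYP1B1 encodes a cytochrome P450 that oxidises polycyclic hydrocarbons and estrogens (chromosome 2, 38066973 to 38109902, minus strand, GRCh38). It was at 58.3, 54.9 and 53.0 CPM in the 3 vehicle libraries and at 81.7 and 78.5 CPM in high-dose replicates 1 and 2. The groups did not overlap, and the 2 treated libraries differed by less than the range of the vehicle libraries. CYP1B1 rose by 0.53 ± 0.07 on the log2 scale (SE), or 1.44-fold, with an adjusted p of 2.5e-05. Without replicate 2 the value was 0.56 (adjusted p = 0.00122), and without replicate 1 it was 0.50 (adjusted p = 9.18e-05).

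TIPARP encodes a mono-ADP-ribosyltransferase that AhR induces and that represses AhR (chromosome 3, 156673235 to 156706770, plus strand). It was at 35.2, 32.4 and 32.9 CPM in vehicle and at 45.4 and 63.4 CPM in replicates 1 and 2. Both replicates were above every vehicle library, replicate 2 by more. TIPARP rose by 0.71 ± 0.09 on the log2 scale, 1.64-fold (adjusted p = 2.63e-05); without replicate 2 the value was 0.44 (adjusted p = 0.225). In the replicate set aside TIPARP was at 17.8 CPM, below vehicle.

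CYP1A1, the classical AhR target, was present at very low levels. It was at 0.899, 0.736 and 0.618 CPM in vehicle and at 1.07 and 1.99 CPM in replicates 1 and 2. The groups did not overlap, although the gap between the highest vehicle library and replicate 1 was smaller than the spread of the vehicle libraries. CYP1A1 rose by 1.09 ± 0.28 on the log2 scale (adjusted p = 0.0376), with 0.50 (adjusted p = 0.982) without replicate 2. ALDH3A1, an aldehyde dehydrogenase regulated by AhR and NRF2, was at 661, 641 and 751 CPM in vehicle and at 734 and 1380 CPM in the treated pair. Replicate 1 lay inside the vehicle range. ALDH3A1 rose by 0.63 ± 0.13 (adjusted p = 0.0114), with 0.11 (adjusted p = 0.995) without replicate 2. AHRR, the repressor of AhR, was at 2.21 to 2.78 CPM in vehicle and 2.94 and 3.32 CPM in the treated pair and did not pass the test (log2 0.32, adjusted p = 0.354). NQO1, UGT1A6 and the amino acid transporter SLC7A5 had log2 values of 0.07, -0.65 and -0.03 and were not called. UGT1A6 shares exons with other genes of its locus, so its count is uncertain.

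Promoter letters are shown for the called AhR targets that have an entry in the RefSeq table (GRCh38.p14), because AhR and ARNT bind the core letters GCGTG. Each run is 30 bases, read 5′ to 3′ on the strand of the gene, with GCGTG or its reverse complement CACGC in capitals. The CYP1A1 match begins 57 bases before the RefSeq start (chr15:74725568-74725597, minus strand). The TIPARP matches begin 208 and 142 bases before the first of its 3 starts (chr3:156674370-156674399 and chr3:156674436-156674465, plus strand).
CYP1A1: ccagggaaggagGCGTGgccacacgtacaa
TIPARP, 208 bases before the start: cgcgagaaaggaCACGCcccctcgcgggag
TIPARP, 142 bases before the start: cgaacgaacgcgCACGCgcgcgcagggggc
Within 250 bases before a start, GCGTG on either strand was present at 6 of the 10 starts of the 6 measured AhR targets in the table, and in 32.2% of 35116 promoters overall. Such a match is a description of the letters and not of a bound site. CYP1B1 and ALDH3A1 have no entry and are named only.

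Across the doses, CYP1B1 stood at 67.5, 57.3 and 61.7 CPM in the low-dose libraries and at 76.8 and 62.8 CPM in medium-dose replicates 1 and 2. Set side by side within replicate 1, the low, medium and high dose had 67.5, 76.8 and 81.7 CPM, and within replicate 2 they had 57.3, 62.8 and 78.5 CPM. The high dose differed from the low dose by 0.37 on the log2 scale (adjusted p = 0.0043). TIPARP was at 40.3, 34.1 and 32.8 CPM at the low dose, and the high dose was higher by 0.62 (adjusted p = 0.000901). At the medium dose TIPARP was at 39.1 CPM in replicate 1, below the low dose there, and at 51.4 CPM in replicate 2. CYP1A1 was at 1.14, 0.785 and 0.695 CPM at the low dose, a difference of 0.92 that did not pass (adjusted p = 0.0788). In medium-dose replicates 1 and 2 CYP1A1 was at 1.34 and 0.68 CPM, so in neither replicate did it rise in order of dose. The AhR list median was 0.27, 0.02 and -0.04 in the low-dose libraries. It was 0.19 and 0.16 in the medium-dose pair and 0.15 and 0.42 in the high-dose pair.

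**Figure D3:**
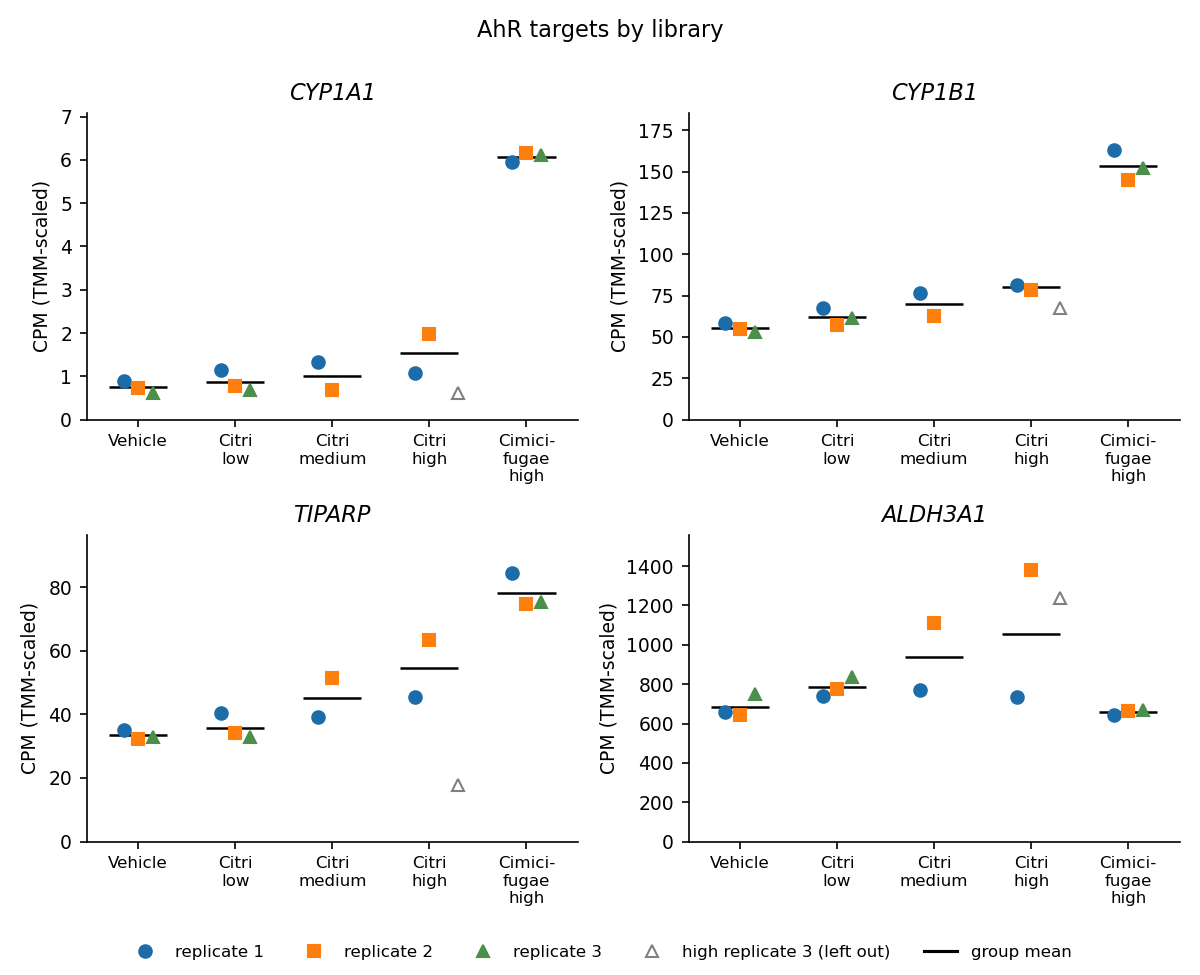
Level of 4 AhR targets in CPM (vertical axes, linear, from 0) in each library of the vehicle, the 3 Citri Unshius Pericarpium doses and Cimicifugae Rhizoma at its high dose; symbols mark the replicate, bars the group mean, and the open triangle the replicate set aside. CYP1B1 was at 81.7 and 78.5 CPM in the high-dose pair against 53.0 to 58.3 in vehicle, and ALDH3A1 was at 734 and 1380 CPM in the pair, with the replicate set aside at 1240 CPM.

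Among genes that respond to ERK signalling, those that were called were higher in replicate 2 than in replicate 1. Of 29 measured genes on the MAPK and immediate early list, 5 were called higher and 0 lower, beside 0.878% higher and 0.573% lower of all genes tested, with a list median of 0.37. The median was -0.06 in replicate 1 and 0.61 in replicate 2, and the same division appeared at the medium dose, with -0.05 in replicate 1 and 0.55 in replicate 2. EGR1, a zinc-finger transcription factor induced within minutes of ERK activation (chromosome 5, 138465490 to 138469315, plus strand), was at 1.09, 1.40 and 0.926 CPM in vehicle and at 1.44 and 6.48 CPM in replicates 1 and 2. Replicate 1 was barely above the highest vehicle library and replicate 2 was far above it. EGR1 rose by 1.89 ± 0.40 on the log2 scale (adjusted p = 0.0114), and the value was 0.32 (adjusted p = 0.999) without replicate 2. FOSL1, the Fos-family partner in AP-1, was at 26.7, 28.6 and 27.7 CPM in vehicle and at 27.5 and 94.6 CPM in the treated pair. Replicate 1 lay inside the vehicle range. FOSL1 rose by 1.17 ± 0.29 (adjusted p = 0.0309), and was at -0.00 (adjusted p = 1) without replicate 2.

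In the other called members replicate 2 was again the higher of the pair. DUSP4, a nuclear phosphatase that inactivates ERK, was at 137, 141 and 142 CPM in vehicle and at 142 and 240 CPM in replicates 1 and 2. It rose by 0.46 ± 0.12 (adjusted p = 0.0431; 0.03, adjusted p = 1, without replicate 2). ETV4, an ETS factor downstream of ERK, was at 42.6 to 44.6 CPM in vehicle and at 44.9 and 80.1 CPM in the pair, a rise of 0.54 (adjusted p = 0.0212; 0.05, adjusted p = 0.999, without replicate 2). SPRY2, an inhibitor of receptor tyrosine kinase signalling, was at 6.53 to 6.83 CPM in vehicle and at 8.29 and 10.8 CPM in the pair. Both replicates exceeded vehicle, and SPRY2 rose by 0.53 (adjusted p = 0.0251; 0.31, adjusted p = 0.922, without replicate 2). Members that did not pass the test were FOSB (log2 1.63, adjusted p = 0.0823), FOS (0.85, adjusted p = 0.124), DUSP6 (0.50, adjusted p = 0.0855) and PHLDA1 (0.45, adjusted p = 0.0649). NR4A3, an orphan nuclear receptor, was at 7.82 to 9.57 CPM in vehicle and 7.22 and 5.39 CPM in the pair (log2 -0.50, adjusted p = 0.0587). NR4A1 was at 35.8 to 39.7 CPM in vehicle, 31.1 in replicate 1 and 59.4 in replicate 2, on opposite sides of the vehicle range.

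The serum response element, bound by SRF with ERK-activated partners, is a known feature of the EGR1 promoter, and the promoter is shown for that reason. The 250 bases before the RefSeq start lie at chr5:138465229-138465478 (GRCh38.p14, plus strand). Capitals mark CArG boxes, the form in which SRF sites are written (the bases between the outer CC and GG are all A or T), searched on both strands and found 2 times.
EGR1: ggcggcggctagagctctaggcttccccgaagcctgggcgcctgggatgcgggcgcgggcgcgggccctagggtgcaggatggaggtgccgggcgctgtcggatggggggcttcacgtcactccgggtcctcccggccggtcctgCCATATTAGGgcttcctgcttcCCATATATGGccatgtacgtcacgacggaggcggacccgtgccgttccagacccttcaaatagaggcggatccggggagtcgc
A CArG box was present in 1.16% of 35116 promoters of the same length. The letters do not show which factor, if any, was bound in these cells.

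**Figure D4:**
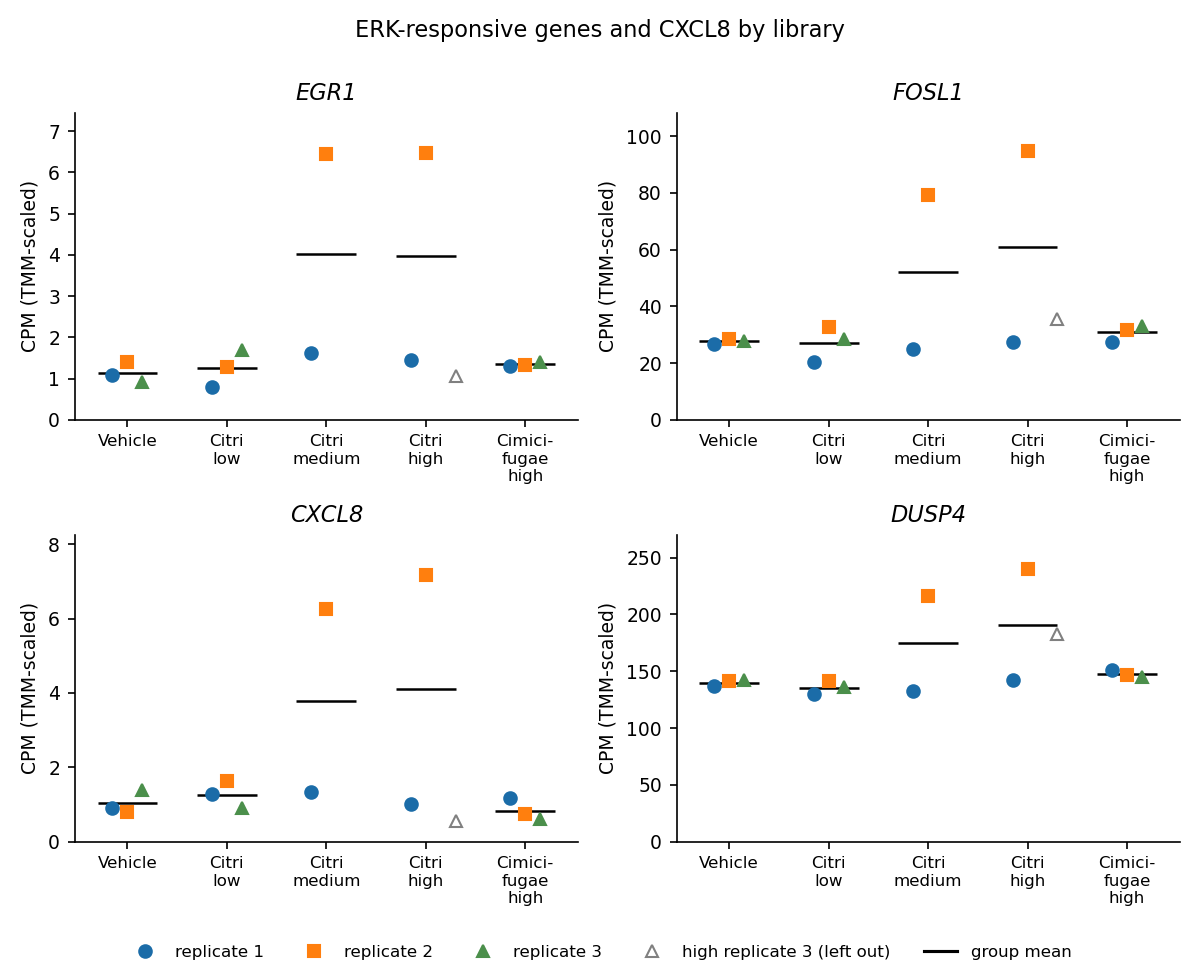
Level of the ERK-responsive genes EGR1, FOSL1 and DUSP4 and of the chemokine CXCL8 in CPM (vertical axes, linear, from 0) in each library, with symbols, bars and the open triangle as for the AhR targets. Replicate 2 of the high and the medium dose stands above every other library in each panel, with CXCL8 at 7.17 and 6.25 CPM, while replicate 1 of both doses lies near the vehicle libraries.

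Among inflammatory genes the chemokine CXCL8 tested higher, and of the high-dose libraries it was high in replicate 2 only. Of 18 measured genes on the NF-kB and inflammatory list, CXCL8 alone was called, beside 0.878% called higher of all genes tested. An unadjusted p below 0.05 was reached by 12 of the 18, beside 16.9% of all genes tested. The list median was 0.35 (0.03 in replicate 1, 0.53 in replicate 2). CXCL8, the neutrophil chemokine interleukin-8 and a target of both NF-kB and AP-1, was at 0.899, 0.806 and 1.39 CPM in vehicle and at 1.02 and 7.17 CPM in replicates 1 and 2. Replicate 1 lay inside the vehicle range. CXCL8 rose by 2.16 ± 0.44 on the log2 scale (adjusted p = 0.0094), and the value was 0.03 (adjusted p = 1) without replicate 2. In the replicate set aside it was at 0.559 CPM. CXCL2 (log2 0.62, adjusted p = 0.0969) and CCL2 (0.57, adjusted p = 0.0901; 5.57 to 6.74 CPM in vehicle, 7.54 and 10.2 CPM in the pair), chemokines for neutrophils and monocytes, and TNFAIP3 (0.32, adjusted p = 0.0894), a feedback inhibitor of NF-kB, did not pass.

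Among called genes that met the naming rule, which asks for at least 5 CPM, the largest rises included CITED4, CDCP1 and GREM1. CITED4, a coregulator that binds CBP and p300, was at 7.04, 8.44 and 8.18 CPM in vehicle and at 9.79 and 28.5 CPM in replicates 1 and 2. It rose by 1.33 ± 0.36 on the log2 scale (adjusted p = 0.0482; 0.32, adjusted p = 0.995, without replicate 2). CDCP1, a transmembrane substrate of Src kinases, was at 4.06, 4.91 and 3.76 CPM in vehicle and at 6.21 and 14.4 CPM in the pair. It rose by 1.32 ± 0.22 (adjusted p = 0.00121; 0.54, adjusted p = 0.89, without replicate 2). GREM1, a secreted antagonist of BMP ligands, was at 5.12, 4.63 and 4.48 CPM in vehicle and at 6.31 and 15.6 CPM in the pair. It rose by 1.26 ± 0.20 (adjusted p = 0.000632; 0.41, adjusted p = 0.916, without replicate 2). In each of these genes both treated libraries exceeded the 3 vehicle libraries, and replicate 2 was at least 2 times replicate 1. In the replicate set aside CITED4 was at 45.3 CPM, but CDCP1 (2.11 CPM) and GREM1 (3.29 CPM) lay below every vehicle library.

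In replicate 1 ANPEP, the surface aminopeptidase N, moved farther from vehicle (log2 0.67) than CITED4 (0.29), CDCP1 (0.50) and GREM1 (0.38). It was at 4.38, 3.29 and 4.22 CPM in vehicle and at 6.58 and 10.5 CPM in replicates 1 and 2. ANPEP rose by 1.15 ± 0.18 (adjusted p = 0.000569) and was called under 10 of 13 alternative settings, though not without replicate 2 (0.74, adjusted p = 0.609). It was at 6.40 CPM in the replicate set aside, so all 3 high-dose libraries lay above the vehicle libraries. NT5E, the ectonucleotidase CD73 that makes adenosine, was at 26.7, 29.1 and 30.2 CPM in vehicle and at 34.5 and 72.4 CPM in the pair. NT5E rose by 0.92 ± 0.14 (adjusted p = 0.000632; 0.27, adjusted p = 0.869, without replicate 2), yet it was at 16.3 CPM in the replicate set aside. The other rises named by the same rule were RIN1, a Ras effector (0.89), the noncoding RNA LINC00941 (0.79), BMERB1 (0.78), SMIM29 (0.72) and TMEM156 (0.72), and the pseudogene CDC20P1 (0.79), whose reads may belong to CDC20. These 6 were at 10.3, 4.12, 14.6, 6.58, 11.2 and 9.36 CPM in replicate 1 and at 22.6, 6.51, 28.5, 12.0, 21.8 and 13.3 CPM in replicate 2, in that order. Against the low dose RIN1, BMERB1 and TMEM156 were called higher, and against Cimicifugae Rhizoma none of the 6 was called. None of the 6 was called without replicate 2.

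Integrin and laminin genes were added after their values had been seen, as subunits of epithelial adhesion to laminin. ITGB4, the beta subunit of hemidesmosomes, was at 28.4, 26.8 and 27.6 CPM in vehicle and at 30.6 and 58.2 CPM in replicates 1 and 2. It rose by 0.71 ± 0.12 on the log2 scale (adjusted p = 0.00121). ITGA3, an alpha subunit of laminin receptors, was at 269 to 271 CPM in vehicle and at 290 and 513 CPM in the pair, a rise of 0.58 (adjusted p = 0.00865). Without replicate 2 the values were 0.15 and 0.11, with adjusted p of 0.95 and 0.989. Of the same kind, ITGA6 had 0.17 (adjusted p = 0.244), LAMB3 0.03 (adjusted p = 0.902) and LAMA3 -0.11 (adjusted p = 0.639), and none of them passed the test.

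The fibrinogen chains were lower together in the high-dose pair. FGA, FGB and FGG lie side by side on chromosome 4 (154583126 to 154590766, 154562956 to 154571086 and 154604134 to 154612967, GRCh38) and encode the subunits of fibrinogen, a clotting protein that liver cells secrete and that A549 cells also transcribe. FGA was at 149, 145 and 154 CPM in vehicle and at 119 and 80.2 CPM in replicates 1 and 2. FGB was at 157, 158 and 166 CPM in vehicle and at 138 and 75.3 CPM in the pair. FGG was at 84.5, 76.6 and 96.7 CPM in vehicle and at 71.6 and 43.0 CPM in the pair. In each chain both treated libraries lay below all 3 vehicle libraries, replicate 1 narrowly for FGG. FGA fell by 0.59 on the log2 scale (SE 0.10, adjusted p = 0.00142), FGB by 0.60 (adjusted p = 0.037) and FGG by 0.60 (adjusted p = 0.0382). Without replicate 2 the values were -0.33, -0.22 and -0.25, with adjusted p of 0.792, 0.981 and 0.969.

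Other falls were spread over unrelated functions. CASTOR2, related to the arginine sensor of the mTORC1 pathway, was at 5.90, 6.59 and 5.76 CPM in vehicle and at 3.85 and 3.35 CPM in replicates 1 and 2. The 2 treated libraries were close to each other and below all vehicle libraries, and CASTOR2 fell by 0.78 (SE 0.17, adjusted p = 0.0123). It has near-identical copies on chromosome 7, so its count is uncertain, and without replicate 2 it was at -0.66 (adjusted p = 0.817). FOXK1, a forkhead factor, was at 134, 126 and 108 CPM in vehicle and at 90.9 and 71.8 CPM in the pair and fell by 0.60 (adjusted p = 0.0183). NFIA, a developmental transcription factor, was at 51.1 to 54.2 CPM in vehicle and at 39.6 and 32.9 CPM in the pair. NFIA fell by 0.54 (adjusted p = 0.0123). SFRP4, a secreted Wnt modulator, fell by 0.57, PARD6B, a cell polarity protein, by 0.53, SLC45A4 by 0.52, the noncoding transcript COX10-DT by 0.50 and AP1M2, an adaptor subunit of epithelial sorting, by 0.49, all with both treated libraries below vehicle. Without replicate 2 none of these 7 was called. Of these 7, NFIA, SFRP4 and PARD6B were called lower than at the low dose, and NFIA and SFRP4 lower than with Cimicifugae Rhizoma. MVP-DT, at 12.2 to 15.8 CPM in vehicle and 8.99 and 8.01 CPM in the pair (log2 -0.69), is of the antisense class that the choice of libraries used, and is given as a description. MVP-DT was at 7.7, 5.41 and 9.24 CPM at the low dose and at 6.48 to 9.45 CPM with Cimicifugae Rhizoma.

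In 107 of the 266 called genes replicate 2 did not move more than 2 times as far as replicate 1. Besides CYP1B1, 3 such genes with nearly equal replicates are given, outside the naming rule and chosen after their values were seen. DTX3, a ubiquitin ligase of the Deltex family, was at 11.5, 12.2 and 11.9 CPM in vehicle and at 17.3 and 17.1 CPM in replicates 1 and 2, a rise of 0.54 ± 0.08 on the log2 scale (adjusted p = 0.000485). DIO2, the deiodinase that activates thyroid hormone, was at 70.0, 69.3 and 63.7 CPM in vehicle and at 52.9 and 51.5 CPM in the pair, and fell by 0.38 (adjusted p = 0.000705). GLP2R, the receptor of glucagon-like peptide 2, was at 21.3 to 23.8 CPM in vehicle and at 17.9 and 16.6 CPM in the pair, and fell by 0.39 (adjusted p = 0.00157). In each, both treated libraries lay outside the vehicle range and close to each other. Without replicate 2 none of the 3 was called.

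The other lists held 1 or 2 calls, or none, where 1.45% of all genes tested were called. HSPD1, the mitochondrial chaperonin, was at 1460 to 1530 CPM in vehicle and at 1260 and 1330 CPM in the pair and fell by 0.21 (adjusted p = 0.0486), 1 of 16 heat shock genes. MDM2, the ubiquitin ligase of p53, was at 173 to 177 CPM in vehicle and at 149 and 124 CPM in the pair and fell by 0.36 (adjusted p = 0.0216), 1 of 22 p53 targets, while CDKN1A had -0.01 (adjusted p = 0.962). GINS1, a subunit of the replicative helicase, fell by 0.33 (adjusted p = 0.0023), 1 of 30 replication genes, from 84.9 to 88.1 CPM in vehicle to 74.4 and 64.9 CPM. AJUBA, a junctional scaffold, fell by 0.34 (adjusted p = 0.00483), from 149 to 159 CPM in vehicle to 131 and 116 CPM, and NT5E was the other called gene among 15 YAP and TEAD targets. Single rises were ENO2, a glycolytic enolase (0.36, adjusted p = 0.0115), CTSL, a lysosomal protease (0.63, adjusted p = 0.011), BCL6, a repressor that FOXO factors induce (0.56, adjusted p = 0.0209), and the clock repressor BHLHE40 (0.36, adjusted p = 0.00985). ENO2 was at 30.3 to 32.6 CPM in vehicle and at 38.8 and 41.4 CPM in the pair, one of the smaller gaps between replicates. Against the low dose, log2 values were -0.03 for HSPD1, -0.25 for MDM2, -0.19 for GINS1, -0.07 for AJUBA and 0.12 for BCL6, none called. Against Cimicifugae Rhizoma they were 0.03, -0.2, -0.06, -0.25 and -0.01, with AJUBA alone called. ENO2 was called higher in both comparisons (0.41 and 0.35). CTSL (0.51 and 0.52) and BHLHE40 (0.2 and 0.29) were called only against Cimicifugae Rhizoma. None of these 8 genes was called without replicate 2.

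In 20 of the 33 lists no member was called. Of all genes tested 16.9% had an unadjusted p below 0.05, the share to set beside the counts that follow. Among 27 targets of ATF4, the regulator of the amino acid and stress response, 0 were called by edgeR and 0 by DESeq2, with 11 at an unadjusted p below 0.05. The list median was 0.20, made of -0.07 in replicate 1 and 0.35 in replicate 2, and it was 0.78 in medium-dose replicate 2. TRIB3 (66.2 to 73.1 CPM in vehicle, 78.4 and 106 CPM in the pair, adjusted p = 0.146) and ASNS (127 to 133 CPM, then 122 and 187 CPM, adjusted p = 0.391) were examples. Of 25 genes of cholesterol synthesis and uptake 0 were called by edgeR or DESeq2, with 3 at an unadjusted p below 0.05. HMGCS1 was at 198 to 207 CPM in vehicle, at 223 CPM in replicate 1 and at 136 CPM in replicate 2 (adjusted p = 0.338). INSIG1 (adjusted p = 0.68) was likewise not called. Among 26 genes of mitosis 0 were called by either tool, with 3 at an unadjusted p below 0.05 and CCNB1 at -0.12 (adjusted p = 0.439). HMOX1, which degrades heme, was at 161 to 178 CPM in vehicle and at 183 and 214 CPM in the pair (log2 0.24, adjusted p = 0.231), and 1 of 24 NRF2 targets, ALDH3A1, was called. KRT19 (adjusted p = 0.163) and MT2A (adjusted p = 0.202) were not called, and TXNIP was below the count minimum.

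The mitochondrially encoded mRNAs had the second highest list median, 0.42, with 0 of 13 called by edgeR or DESeq2. An unadjusted p below 0.05 was reached by 6 of the 13, beside 16.9% of all genes tested. Their median was 0.17 in replicate 1 and 0.62 in replicate 2. MT-CO2, a subunit of cytochrome c oxidase, was at 4910 to 5360 CPM in vehicle and at 5370 and 9850 CPM in the pair (log2 0.58, adjusted p = 0.111). All mitochondrial mRNAs together took 5.55% to 6.19% of counts in vehicle, 6.73% in replicate 1, 8.27% in replicate 2 and 1.98% in the replicate set aside. A higher share of mitochondrial transcripts and fewer nuclear ones cannot be told apart in bulk RNA.

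**Figure D5:**
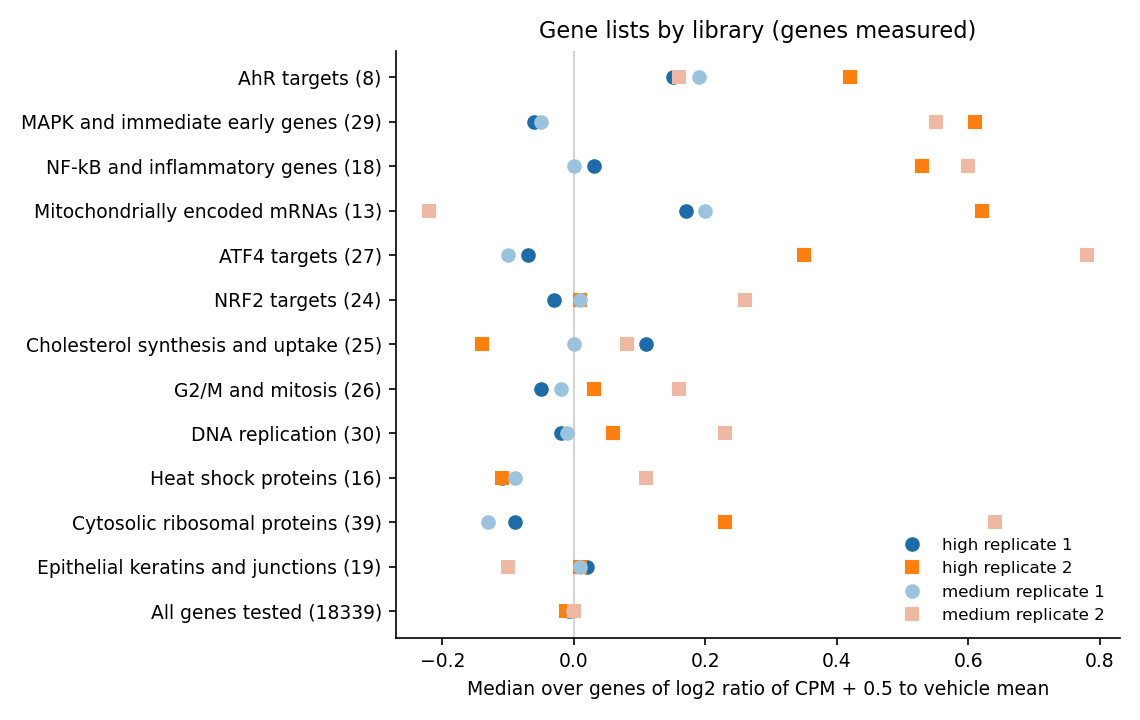
Median over the measured genes of a list of the log2 ratio to the vehicle mean (horizontal axis, after adding 0.5 CPM) for 12 lists and for all genes tested (vertical axis, number measured in brackets), in replicates 1 and 2 of the high and medium dose. The MAPK list stands at -0.06 in high-dose replicate 1 and at 0.61 in replicate 2, and all genes tested stand near 0 in each library.

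Between the high and the low dose, which share the first number of their library codes and use no vehicle, 156 genes were called (0.851%), 101 higher (0.551%) and 55 lower (0.3%) at the high dose. The named genes included CDCP1, GREM1, ANPEP and NT5E upward and the fibrinogen chains FGB and FGG downward. CDCP1 was at 5.23, 3.98 and 4.66 CPM at the low dose and at 6.21 and 14.4 CPM in high-dose replicates 1 and 2, higher by 1.23 ± 0.22 on the log2 scale (adjusted p = 0.0043). GREM1 was higher by 1.09 (adjusted p = 0.0043), ANPEP by 0.87 (adjusted p = 0.00977) and NT5E by 0.87 (adjusted p = 0.00257). RASSF10, a member of the RAS-association domain family, was at 2.42 to 3.65 CPM at the low dose and at 4.12 and 6.59 CPM at the high dose (0.84, adjusted p = 0.0315). FGB was at 168 to 194 CPM at the low dose and at 138 and 75.3 CPM at the high dose, a log2 difference of -0.75 (adjusted p = 0.0132), and FGG differed by -0.66 (adjusted p = 0.0294). CASTOR2 (-0.91, adjusted p = 0.00531), ARRB1, the adaptor beta-arrestin 1 (-0.93, adjusted p = 0.0316), and the nuclear noncoding RNA MALAT1 (-0.77, adjusted p = 0.0141) were also lower. In vehicle ARRB1 was at 8.33 to 9.42 CPM and MALAT1 at 730 to 774 CPM. All low-dose libraries lay above these, at 10.5 to 12.1 CPM and 840 to 1260 CPM. In high-dose replicates 1 and 2 ARRB1 was at 8.67 and 3.68 CPM and MALAT1 at 700 and 463 CPM. The naming rule required both high-dose libraries of these 10 genes to lie beyond all low-dose libraries. FGA, which is not among the 10, was also called lower at the high dose (-0.65, adjusted p = 0.00176).

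Without high-dose replicate 2, 0 genes were called between the doses by edgeR, where 941 had an unadjusted p below 0.05, and without replicate 1 there were 2212. The values without replicate 2 were 0.45 for CDCP1, 0.24 for GREM1, 0.46 for ANPEP, 0.22 for NT5E, 0.43 for RASSF10, -0.36 for FGB, -0.32 for FGG, -0.79 for CASTOR2, -0.35 for ARRB1 and -0.50 for MALAT1. Leaving out low-dose replicate 1, 2 or 3 gave 37, 237 and 84 genes. Among AhR targets 2 of 8 were called higher at the high than at the low dose, and among MAPK and immediate early genes 6 of 29. The share over all genes tested was 0.551%.

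Against Cimicifugae Rhizoma at the same dose, 456 genes were called (2.49%), 298 higher (1.62%) and 158 lower (0.862%) with Citri Unshius Pericarpium. AhR targets were lower with the citrus peel: 4 of the 8 measured were lower and 1, ALDH3A1, was higher. CYP1A1 was at 5.95, 6.16 and 6.10 CPM with Cimicifugae Rhizoma and at 1.07 and 1.99 CPM with Citri Unshius Pericarpium. The groups were far apart, and CYP1A1 was lower with the citrus peel (log2 -1.91, SE 0.22, adjusted p = 4.35e-07; -2.50 without high-dose replicate 2). CYP1B1 was at 163, 145 and 152 CPM against 81.7 and 78.5 CPM (log2 -0.94, adjusted p = 4.61e-12), and AHRR at 5.75 to 6.19 CPM against 2.94 and 3.32 CPM (log2 -0.91, adjusted p = 0.00075). TIPARP was at 84.3, 74.7 and 75.4 CPM against 45.4 and 63.4 CPM (log2 -0.51, adjusted p = 0.000653). HMOX1 was at 342 to 359 CPM against 183 and 214 CPM (log2 -0.82, adjusted p = 3.18e-06). Without high-dose replicate 2, CYP1A1, CYP1B1, AHRR and HMOX1 were all called lower, with adjusted p between 2.49e-08 and 0.0274.

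For PDK4, SUSD2, NR4A1 and PTGS2, which were higher with the citrus peel, all Cimicifugae Rhizoma libraries also lay below vehicle. PDK4, the kinase that restrains pyruvate oxidation, was at 12.8, 9.89 and 11.1 CPM with Cimicifugae Rhizoma and at 27.0 and 34.6 CPM with Citri Unshius Pericarpium, beside 21.7 to 26.4 CPM in vehicle. PDK4 was higher by 1.47 ± 0.13 (adjusted p = 2.96e-10; 1.27, adjusted p = 2.09e-06, without high-dose replicate 2). SUSD2, a surface protein with a sushi domain, was at 12.6 to 13.4 CPM against 26.2 and 41.4 CPM (1.41, adjusted p = 1.01e-10; 1.03, adjusted p = 8.12e-07, without replicate 2), beside 24.7 to 27.2 CPM in vehicle. NR4A1 was at 12.7 to 14.1 CPM against 31.1 and 59.4 CPM (1.78, adjusted p = 3.83e-07; 1.22, adjusted p = 0.00626, without replicate 2), beside 35.8 to 39.7 CPM in vehicle. PTGS2, the inducible cyclooxygenase, was at 9.04 to 13.6 CPM against 21.1 and 32.5 CPM (1.28, adjusted p = 1.33e-05), beside 20.6 to 25.6 CPM in vehicle. Without replicate 2 the PTGS2 difference was 0.91 and was not called. Between the citrus peel and vehicle PTGS2 was not called (log2 0.29, adjusted p = 0.403).

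MARCHF4, a membrane ubiquitin ligase, and KRT4, an epithelial keratin, differed between the extracts through replicate 2. MARCHF4 was at 9.19 to 11.7 CPM with Cimicifugae Rhizoma and at 13.1 and 36.4 CPM with Citri Unshius Pericarpium (1.26, adjusted p = 0.000972; 0.29, adjusted p = 0.999, without replicate 2). KRT4 was at 33.2 to 34.6 CPM against 25.8 and 9.32 CPM (-1.01, adjusted p = 0.00655; -0.38, adjusted p = 0.859, without replicate 2). Without high-dose replicate 2, 67 genes were called between the extracts, and without replicate 1, 3014. Leaving out Cimicifugae Rhizoma replicate 1, 2 or 3 gave 198, 300 and 222 genes, and a model of only the 5 libraries compared called 2.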

How the data were processed

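The authors deposited a table of RSEM expected counts per Ensembl gene; 84.4% of its values are whole numbers. Per the submitters' processing notes, RSEM 1.3.3 and STAR 2.7.3a were used on hg38 (GRCh38), with Trim Galore 0.6.5 and FastQC 0.11.9. The library kit keeps strand, but no source used here gives the strand setting of the counting, so reads of a gene and of its antisense partner cannot be told apart. Columns were matched to samples by library code, and 210 columns of other series were not used. Gene classes and positions came from GENCODE 29 (57055 of 60675 gene IDs).

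Counts were rounded and tested with edgeR 4.0.16 (R 4.3.3): TMM factors, filterByExpr (minimum count 10, minimum total 15), 1 quasi-likelihood model of 55 libraries in 25 groups (residual df 30), Benjamini-Hochberg over 18339 genes, threshold 0.05. CPM are TMM-scaled, and values per replicate are log2 ratios after adding 0.5 CPM; library and marker sums use plain CPM. The procedure was tested on simulated counts, drawn independently for each library without a library-wide deviation such as that of high-dose replicate 2. The simulation therefore cannot show how calls behave under such a deviation. The depth of 18149446 to 39751161 counts leaves genes near 1 CPM imprecise.

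Members, gene lists and tests were chosen with earlier results of these data known. Named genes were, per direction, the 12 largest changes among called genes with both treated libraries beyond all vehicle libraries and at least 5 CPM, up to 6 called members of each of 33 lists, a fixed panel, and 5 per direction for the 2 other comparisons; some genes are not reported here. Alternatives were DESeq2 1.42.0, RLE factors, no filter, other sets of libraries, a replicate block and leaving out each replicate; the model without the medium dose was added after seeing the data.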

Additional observations from a re-analysis of the deposited data

Results flagged for a closer look

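In the replicate set aside, high-dose replicate 3, 4 of the named genes were at more than 2 times the highest vehicle library, and this library enters none of the comparisons. CITED4 was at 45.3 CPM there, against at most 8.44 CPM in vehicle, with 9.79 and 28.5 CPM in replicates 1 and 2. RIN1 was at 29.7 CPM, against at most 10.2 CPM in vehicle, with 10.3 and 22.6 CPM in replicates 1 and 2. ITGA3 was at 548 CPM, against at most 271 CPM in vehicle, with 290 and 513 CPM in replicates 1 and 2. KRT19 was at 83.8 CPM, against at most 24.9 CPM in vehicle, with 24.9 and 29.5 CPM in replicates 1 and 2. In this library 5784 of 10920 genes lay over 0.5 on the log2 scale from the vehicle mean and antisense genes took 4601 CPM, and the part of either in these levels was not tested.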

How the results depend on the processing

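The counts of called genes depended on which libraries were in the model. For the high dose against vehicle (266), DESeq2 called 452, no count filter 1071, all 59 libraries 821, the model without the medium dose 846, the compared extracts alone 0 (830 at an unadjusted p below 0.05) and the compared libraries alone 0 (1603); leaving out 1 replicate gave 1 to 2416. Against the low dose (156) these were 310, 918, 657, 634, 0 (313) and 0 (631), with 0 to 2212 for 1 replicate left out. Against Cimicifugae Rhizoma (456) no filter gave 1369, all 59 libraries 1425, no medium dose 1281, the compared extracts 10 and the compared libraries 2, with 67 to 3014 for 1 replicate left out; DESeq2 (563) stayed within 1.5 times. With RLE factors the counts were 263, 167 and 457. With the replicate number as a block, the comparison with vehicle gave 446 genes and held all 266. For the other 2 comparisons the vehicle was left out and the block was the replicate number within each first code number. These gave 620 and 1141 genes. In the main model the replicate numbers were not taken as pairs. The labels tie no shared culture or day to them, and the high dose has only 2 libraries. Across 10920 genes the difference of replicate 2 from replicate 1 at the high dose correlated with that in vehicle at r = 0.04, and with those of the medium dose, low dose and Cimicifugae Rhizoma at 0.75, 0.66 and 0.44, libraries that share the code 12, so libraries of that code with the same number deviated together; genes are not independent replicates. Of the 266 genes, DESeq2 also called 247, the model without replicate 1 held 258 and all 59 libraries 123. Among 79 named results under up to 19 settings, 710 values kept direction and call, 283 lost the call, 22 gained it and 12 changed sign. With 1 replicate left out, the log2 value ranged from -0.08 to 0.53 for ASNS, -0.00 to 1.77 for FOSL1, -0.58 to 0.15 for HMGCS1, -0.32 to 0.16 for INSIG1, -0.10 to 0.81 for MT2A, -0.02 to 0.17 for NQO1 and -0.28 to 0.65 for NR4A1, the sign changing without high-dose replicate 2. It ranged from -0.18 to 0.14 for CDKN1A and -0.06 to 0.14 for LAMB3, the sign changing without replicate 1. CDKN1A also changed sign without vehicle replicate 3 (0.02) and without the filter (0.01), and ITGA6 with all 59 libraries (-0.01). Models that leave out libraries hold fewer samples by construction; otherwise the cause was not tested.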
